A study of Mus musculus with 2 samples.

Results

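The piRNA pathway genes examined were *Ddx4*, *Piwil2*, *Piwil4*, *Mael*, *Tdrd1*, *Tdrd9*, *Mov10l1*, *Asz1*, *Pld6* and *Gtsf1*. They were taken by gene symbol, by a rule that uses no measured value but was made with earlier results of these data known, and make up 10 of the 39695 gene entries in the RNA-seq tables. The tables held 1 library from control testes and 1 library from *Bcas2F/-;Vasa-Cre* testes, both from whole testes of 9-day-old mice (P9). The control males were *Bcas2F/-*, with a floxed and a deleted allele of the splicing factor gene *Bcas2*, and the mutant males carried in addition *Vasa-Cre*, a transgene whose recombinase is active in germ cells and removes the floxed allele there. Loss of a *Bcas2* allele was therefore shared by both genotypes. The strain given in the labels is C57BL/6, but the methods of the study describe the line as kept on a mixed background. How many mice were pooled in a library is not given in the sources used here. The question addressed was whether the genes of a germ cell pathway differed in level between the genotypes.

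PIWI-interacting RNAs (piRNAs) are small RNAs that guide PIWI proteins, the germ line branch of the Argonaute family, to transposon transcripts. In the mouse testis, precursors are unwound and cut at the surface of mitochondria and in the nuage, a granule beside the nucleus, and the loaded PIWI proteins then slice transposon RNA in the cytoplasm or direct DNA methylation of transposons in the nucleus of prospermatogonia. Tudor domain proteins hold these granules together by binding methylated arginines of the PIWI proteins, and male mice that lack a core factor of the pathway usually arrest in meiosis.

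Promoter sequences are shown first, because they are a feature that the choice of the genes did not use. RefSeq promoter windows on GRCm38.p6 were matched for 9 of the 10 genes, all but *Piwil2*, and the 250 bases before the start site were searched on both strands for the E-box CACGTG, for GGCAGTT, the core bound by A-MYB, and for GGCGGGAA, an E2F site. The E-box, a palindrome read by MAX and its partners among other factors, was present in 6 of the 9 windows, those of *Ddx4*, *Mael*, *Tdrd1*, *Tdrd9*, *Mov10l1* and *Pld6*. Of all 32851 windows of the same length, 6.02% held it, and of the 12417 windows with at least 10 CG dinucleotides 9.37% did. These shares are over all RefSeq windows, where a gene can have several, whereas the 9 genes were counted with 1 window per gene. Starts are those of RefSeq and can differ from the GENCODE gene ends given below. The GENCODE gene of *Ddx4* reaches 112652475 on the minus strand, so its E-box lies inside that gene. The windows of *Mov10l1*, *Piwil4*, *Mael* and *Gtsf1* also reach into their GENCODE genes. Each E-box of these genes is printed on the strand of its gene with up to 12 bases on either side, the E-box in capitals, so that the flanks can be compared.
Ddx4 (29 bases before the start, chr13:112652322-112652351, minus strand): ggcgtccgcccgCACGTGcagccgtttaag
Mael (223 bases before the start, chr1:166238950-166238979, minus strand): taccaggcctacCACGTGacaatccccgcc
Tdrd1 (11 bases before the start, chr19:56826186-56826208, plus strand): tggggctgcgcgCACGTGggagt
Tdrd9 (165 bases before the start, chr12:111971382-111971411, plus strand): ggtctccataaaCACGTGcctgtccaggtc
Tdrd9 (95 bases before the start, chr12:111971452-111971481, plus strand): gcacgaggctccCACGTGcatgcagggcct
Mov10l1 (246 bases before the start, chr15:88982744-88982765, plus strand): ccttCACGTGctaaccgccaac
Pld6 (33 bases before the start, chr11:59787673-59787702, minus strand): ggggcgggctggCACGTGttgggcgcgcaa

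The *Ddx4* gene is also called *Vasa*, and its promoter drives the Cre transgene of the mutant. The forward primer with which the transgene was genotyped begins at the E-box of *Ddx4* printed above and matches the bases after it. The *Ddx4* window also held the only E2F match among the 9 windows (1.86% of all windows held one), likewise inside the GENCODE gene. No window held the A-MYB core (3.33% of all windows). The number of CG dinucleotides in the 250 bases ran from 7 in *Gtsf1* to 31 in *Ddx4*, with a median of 14 for the 9 genes and 6 for all windows. A match describes the letters only, and binding of a factor was not measured. The promoter windows of 3 genes, picked in part by their ratios, are printed whole, in lower case with the E-boxes in capitals. *Tdrd9* (chr12:111971309-111971558, plus strand) has 2 E-boxes and the lowest ratio of the genes. *Pld6* (chr11:59787658-59787907, minus strand) has an E-box and a ratio near 0. *Asz1* (chr6:18109062-18109311, minus strand) has none and a ratio near 0. *Piwil4*, whose window is not printed, also has none, but a log2 ratio of −0.49.
Tdrd9: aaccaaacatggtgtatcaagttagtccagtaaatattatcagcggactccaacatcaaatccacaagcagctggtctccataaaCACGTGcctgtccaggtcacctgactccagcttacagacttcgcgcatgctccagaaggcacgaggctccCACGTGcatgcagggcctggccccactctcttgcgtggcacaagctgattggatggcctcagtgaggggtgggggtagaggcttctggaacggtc
Pld6: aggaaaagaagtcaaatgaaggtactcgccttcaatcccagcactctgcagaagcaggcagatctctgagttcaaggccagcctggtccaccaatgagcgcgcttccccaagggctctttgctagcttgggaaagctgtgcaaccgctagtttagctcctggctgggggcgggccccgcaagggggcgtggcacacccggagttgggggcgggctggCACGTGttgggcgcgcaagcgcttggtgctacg
Asz1: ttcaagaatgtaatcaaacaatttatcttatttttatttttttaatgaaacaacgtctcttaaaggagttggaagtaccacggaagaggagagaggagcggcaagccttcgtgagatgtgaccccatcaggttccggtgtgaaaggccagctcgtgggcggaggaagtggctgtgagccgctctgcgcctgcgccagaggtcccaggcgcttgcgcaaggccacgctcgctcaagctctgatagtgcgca

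Expression was deposited as RPKM, the reads counted on a gene divided by its length in kilobases and scaled to the size of the library. From the RPKM values, whole reads were recovered for all 10 genes, with library sizes of 19918750 reads in control and 19331687 in *Bcas2F/-;Vasa-Cre* testes, and the genes were covered by 473 reads (*Piwil4*) to 9847 reads (*Ddx4*) in both libraries together. The change of a gene is given as the log2 ratio of RPKM + 1 in *Bcas2F/-;Vasa-Cre* over control, which understates the change of weakly expressed genes. It was computed for the 14831 entries with a mean RPKM of at least 1, all 10 genes among them. Counting intervals are exact 95% intervals, given for levels or for the log2 ratio of reads per library size without a pseudocount, and cover counting error only. With 1 library per genotype no difference has a replicate check, no p-value is given, and a difference between animals cannot be told apart from one between genotypes. The targeted gene, *Bcas2*, went from an RPKM of 39.5 to 25.7 between the genotypes (log2 ratio −0.60), so its RNA was still present in whole mutant testes.

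Of the 10 genes, 9 were lower in *Bcas2F/-;Vasa-Cre* testes and 1, *Asz1*, was higher, whereas 8 were lower with both libraries scaled to the same, larger RPKM sum (*Pld6* turned) and 5 were lower than the median of spermatogonia markers (*Ddx4*, *Piwil2*, *Pld6* and *Gtsf1* turned). Of all tested genes, 46.3% were lower. The median log2 ratio of the 10 genes was −0.31, against 0.015 over all tested genes, and 0.055 with the median of spermatogonia markers set to 0. *Tdrd9* and *Mov10l1*, which like *Ddx4* encode RNA helicases, were more than 1.5-fold lower, and none of the 10 genes was more than 1.5-fold higher. The number past 1.5-fold lower was 3 with a pseudocount of 0.01 or none, 1 with the libraries scaled to the same sum, and 0 with the median of spermatogonia markers set to 0. Over all tested genes, 1.69% were past this threshold in the lower direction and 1.57% in the higher direction. The reads of all 10 genes together amounted to 21679 in control and 16676 in *Bcas2F/-;Vasa-Cre* testes, which per library size is a log2 ratio of −0.34 with a counting interval of −0.36 to −0.31. *Ddx4* and *Mael* supplied 45.1% of these reads in control, and without them the log2 ratio was −0.32. Because whole testes were sequenced, fewer germ cells and less of each RNA per germ cell cannot be told apart in these values.

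The levels of the 10 genes spanned a wide range in both libraries. In control testes *Mael* was the highest at an RPKM of 141, followed by *Ddx4* at 96.9, *Mov10l1* at 64.0, *Asz1* at 41.3, *Piwil2* at 40.1, *Gtsf1* at 35.2, *Tdrd1* at 18.9, *Pld6* at 14.0, *Tdrd9* at 13.3 and *Piwil4* at 5.65. Neighbours in this order were separated by more than their counting intervals, except *Asz1* from *Piwil2* and *Pld6* from *Tdrd9*. In *Bcas2F/-;Vasa-Cre* testes *Asz1* (42.9) stood above *Mov10l1* (41.9), though their intervals overlapped, as did those of *Tdrd1* and *Pld6*, and the other genes kept their places. The order depends on the gene lengths used by the authors. These were inferred by requiring a whole number of bases and taking the candidate nearest to the mean transcript length. They equalled the rounded mean length of the GENCODE M21 transcripts for 6 of the 10 genes, a match that this choice favours. For *Mov10l1* that length was 2111 bases, whereas its longest transcript has 4133. Per kilobase of the longest transcript, the control level of *Mov10l1* was 32.7 instead of 64.0 and that of *Asz1* 20.2 instead of 41.3, so that *Piwil2*, at 40.1, stood above both. A gene's length cancels in its ratio between the libraries.

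**Figure D1:**
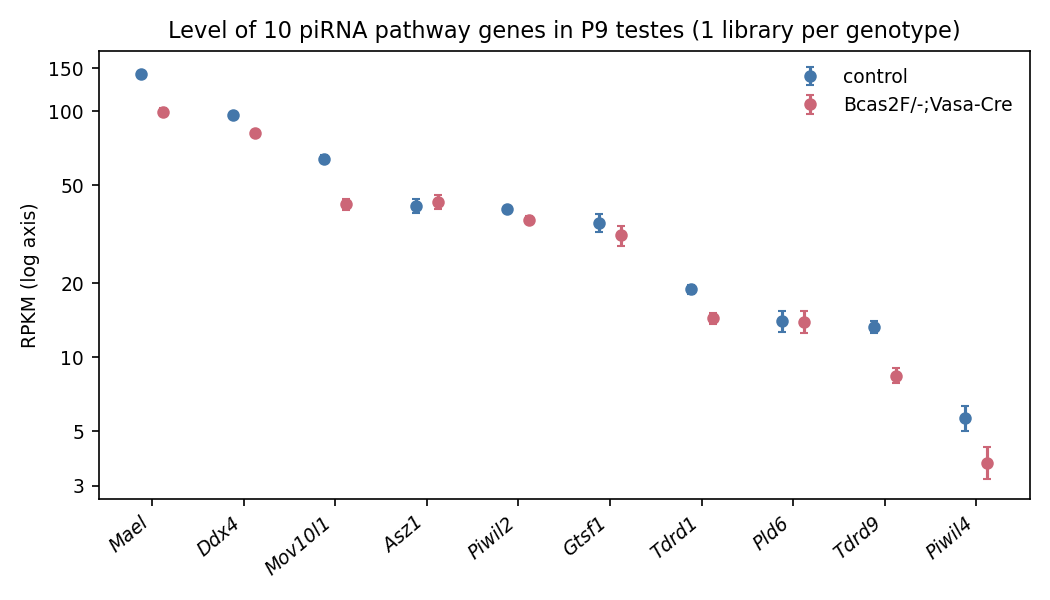
RPKM of the 10 genes in control (blue) and *Bcas2F/-;Vasa-Cre* (red) testes on a log axis, 1 library each, with exact 95% Poisson intervals of the reads as bars. *Mael*, at 141 and 99.5, is the highest gene in both libraries and *Piwil4*, at 5.65 and 3.74, the lowest.

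The 3 helicases of the pathway differed by unequal amounts. *Tdrd9* (ENSMUSG00000054003, chromosome 12, 111971559 to 112068854, plus strand) encodes a Tudor domain protein with a helicase domain that works with PIWIL4 in transposon silencing. Its RPKM was 13.3 in control and 8.41 in *Bcas2F/-;Vasa-Cre* testes, based on 1275 and 782 reads, which is 36.8% lower. The log2 ratio of RPKM + 1 was −0.60, and the log2 ratio of its reads per library size was −0.66 with a counting interval of −0.79 to −0.53. *Mov10l1* (ENSMUSG00000015365, chromosome 15, 88982909 to 89055152, plus strand) encodes the helicase that binds piRNA precursors and feeds them into processing. It was at 64.0 in control and 41.9 in *Bcas2F/-;Vasa-Cre* testes (2692 and 1708 reads), and its log2 ratio was −0.60 with a counting interval of −0.70 to −0.53. When the RPKM values of both libraries were scaled to the same, larger sum, *Mov10l1* was just inside the 1.5-fold threshold, at −0.58. *Ddx4* (ENSMUSG00000021758, chromosome 13, 112598333 to 112652475, minus strand) encodes the DEAD-box helicase MVH of the nuage, whose protein marks germ cells. It went from 96.9 to 81.4, with 5424 and 4423 reads, and the log2 ratio was −0.25 (counting interval −0.31 to −0.19). By real-time RT-PCR on replicate P9 testes, the study reported a similar level of this mRNA (*Mvh*) in both genotypes. The counting interval of *Ddx4* lay above those of both other helicases.

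The PIWI genes were both lower. *Piwil4* (ENSMUSG00000036912, chromosome 9, 14696230 to 14740733, minus strand) encodes MIWI2, the nuclear PIWI protein that directs DNA methylation of transposons in prospermatogonia. Its RPKM was 5.65 in control and 3.74 in *Bcas2F/-;Vasa-Cre* testes, with 288 and 185 reads. As the most weakly covered of the 10 genes it had the widest counting interval, from −0.87 to −0.32 on the log2 scale of its reads, and its log2 ratio moved from −0.49 with the pseudocount of 1 to −0.60 without a pseudocount, which is past 1.5-fold. An antisense gene, *Gm10706*, shares 137 exonic bases with *Piwil4*, but was at an RPKM of only 0.0768 in control and 0.158 in *Bcas2F/-;Vasa-Cre* testes. *Piwil2* (ENSMUSG00000033644, chromosome 14, 70372477 to 70429383, minus strand) encodes MILI, the PIWI protein that takes up primary piRNAs in the cytoplasm and is present in spermatogonia. It was at 40.1 and 36.3, with 3924 and 3448 reads, and the log2 ratio was −0.14 (counting interval −0.21 to −0.08). *Piwil2* was thus 9.46% lower and *Piwil4* 33.8% lower, and their counting intervals did not overlap.

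*Mael* and *Tdrd1*, components of the nuage, lay between *Piwil2* and *Piwil4* in the change of RPKM, at 29.7% and 23.5% lower. By the log2 ratio of RPKM + 1, *Mael* was slightly below *Piwil4* (−0.49). *Mael* (ENSMUSG00000040629, chromosome 1, 166201201 to 166238747, minus strand) encodes Maelstrom, which shuttles between nuage and nucleus. It was at an RPKM of 141 in control and 99.5 in *Bcas2F/-;Vasa-Cre* testes, with 4357 and 2974 reads, and the log2 ratio of −0.50 had a counting interval of −0.58 to −0.44. *Tdrd1* (ENSMUSG00000025081, chromosome 19, 56826209 to 56870012, plus strand) encodes a Tudor scaffold that binds MILI. It was at 18.9 and 14.4, with 1884 and 1398 reads, and the log2 ratio was −0.37. The reads of *Tdrd1* gave −0.39 with an interval of −0.49 to −0.29, above that of *Mov10l1* and below 0.

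*Asz1*, *Pld6* and *Gtsf1* had counting intervals that included 0. *Asz1* (ENSMUSG00000010796, chromosome 6, 18050964 to 18109061, minus strand) encodes GASZ, an ankyrin repeat protein anchored on mitochondria. Its RPKM was 41.3 in control and 42.9 in *Bcas2F/-;Vasa-Cre* testes, with 944 and 951 reads, and the log2 ratio was 0.05 (counting interval −0.08 to 0.19). *Pld6* (ENSMUSG00000043648, chromosome 11, 59783897 to 59787645, minus strand) encodes the mitochondrial Zucchini protein, which acts in the cutting of piRNA precursors. It was at 14.0 and 13.9, with 377 and 363 reads, and the log2 ratio of −0.01 had a counting interval of −0.22 to 0.20. Its sign turned when the libraries were scaled to the same sum, at 0.02. *Gtsf1* (ENSMUSG00000022487, chromosome 15, 103402405 to 103430470, minus strand) encodes a small zinc finger protein that assists the PIWI proteins. It was at 35.2 and 31.3, with 514 and 444 reads, and the log2 ratio was −0.16 (counting interval −0.35 to 0.02). The 2 of the 10 genes whose products sit on the mitochondrial surface, *Asz1* and *Pld6*, had the ratios closest to 0 at the deposited scaling. With the median of spermatogonia markers set to 0, their ratios were those farthest from 0 (0.41 and 0.35). *Tdrkh*, given below with the other pathway genes, also encodes a protein of mitochondria, and was at −0.59. A difference of *Asz1* or *Pld6* within their intervals was not detectable at this depth.

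**Figure D2:**
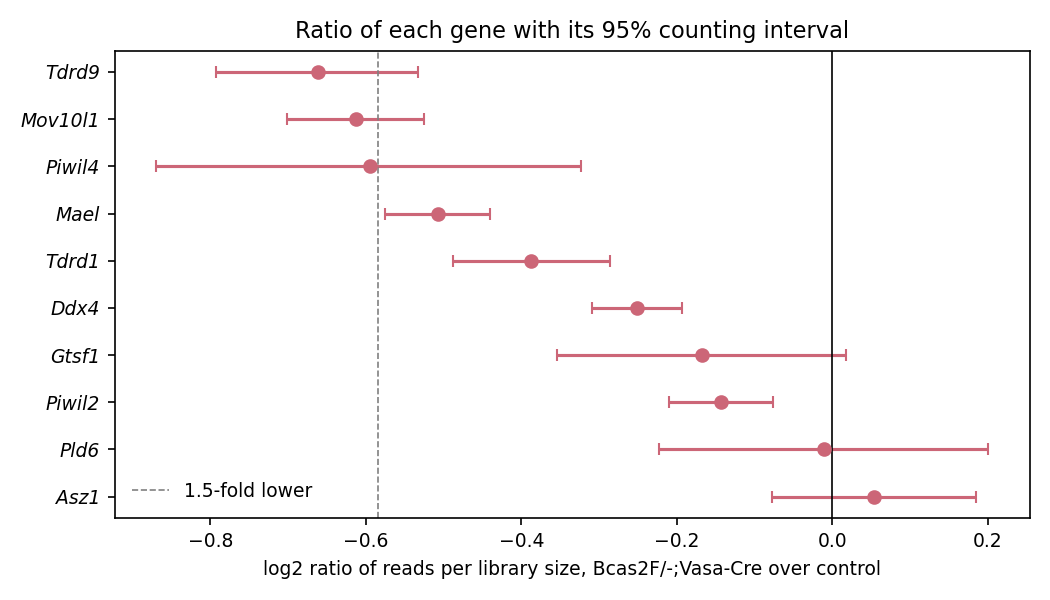
Log2 ratio of reads per library size in *Bcas2F/-;Vasa-Cre* over control for each of the 10 genes, with exact 95% Clopper-Pearson intervals that cover counting error only. The intervals of *Tdrd9*, *Mov10l1*, *Piwil4*, *Mael*, *Tdrd1*, *Ddx4* and *Piwil2* lie below 0, and those of *Gtsf1*, *Pld6* and *Asz1* include it.

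Among the 45 pairs that can be formed from the 10 genes, 25 had counting intervals that did not overlap, so the genes did not share a single ratio within counting error. The spread between genes in general was wider than counting error. Between a mean RPKM of 10 and 50, a class of 6009 genes that holds 6 of the 10, genes had log2 ratios with an SD of 0.188, and 0.899% of them were more than 1.5-fold lower, *Tdrd9* among them. Between 50 and 200, the 2222 genes, *Ddx4*, *Mael* and *Mov10l1* among them, had an SD of 0.157, and 10 of them (0.45%) were more than 1.5-fold lower, *Mov10l1* among them. *Piwil2*, *Gtsf1*, *Pld6* and *Asz1* lay within 1 SD of 0 for their class.

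**Figure D3:**
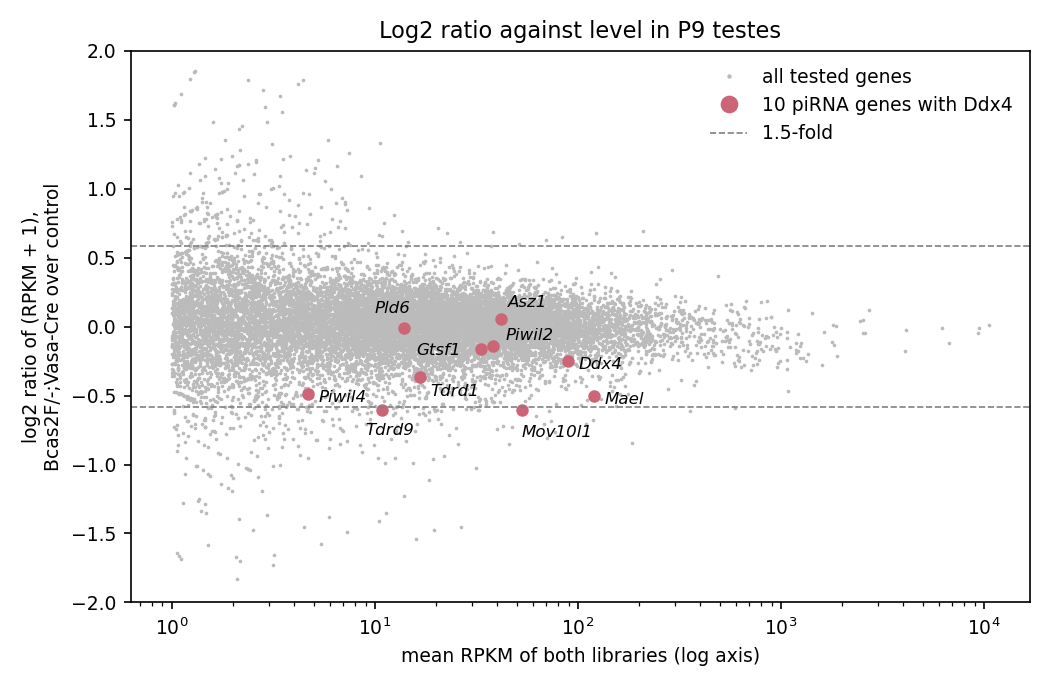
Log2 ratio of RPKM + 1 against mean RPKM (log axis) for all 14831 tested genes (grey) and the 10 piRNA pathway genes (red), of which *Tdrd9* and *Mov10l1* are below the lower 1.5-fold line. The 12 genes outside −2 to 2 are not drawn, and the cloud of genes narrows with level.

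The other genes of the pathway were taken from a list of 28, of which 25 had a mean RPKM of at least 1. Of these, 19 were lower and 6 higher in *Bcas2F/-;Vasa-Cre* testes, with a median log2 ratio of −0.20. Over all tested genes, 46.3% were lower and 1.69% more than 1.5-fold lower. Of the list, *Morc1*, *Spocd1* and, by a narrow margin, *Tdrkh* were more than 1.5-fold lower, and none was more than 1.5-fold higher. The count of 3 became 2 with the libraries scaled to the same sum (without *Tdrkh*), 4 with pseudocounts of 0.1 and 0.01 (with *Piwil1*), and 1 with the median of spermatogonia markers set to 0. *Morc1*, which encodes an ATPase needed for transposon repression in the male germ line, had the lowest ratio, with an RPKM of 16.8 in control and 5.97 in *Bcas2F/-;Vasa-Cre* testes (1021 and 352 reads) and a log2 ratio of −1.35. *Spocd1*, whose product works with MIWI2 in piRNA-directed DNA methylation, was at 5.58 and 2.96 with a log2 ratio of −0.73. *Tdrkh*, a Tudor protein of mitochondria that takes part in trimming piRNA ends, was at 19.0 and 12.3 with a log2 ratio of −0.59. *Tex15*, which acts in nuclear silencing, and *Rnf17*, a Tudor gene, were at −0.24 and −0.49.

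The trimming and methylating enzymes of piRNA 3′ ends differed less, with log2 ratios of −0.20 for *Pnldc1* and −0.27 for *Henmt1*. The highest ratio of the list was that of *Exd1*, a partner of TDRD12 in piRNA biogenesis, at 3.79 in control and 5.57 in *Bcas2F/-;Vasa-Cre* testes (log2 ratio 0.45), and *Tdrd12* itself was at 0.24. *Tex19.1*, a germ line factor that restrains transposons, was the most highly expressed of the list at 110 and 89.7, with a log2 ratio of −0.28. *Piwil1*, the PIWI gene of pachytene spermatocytes, was at 1.79 and 1.01, and *Mybl1*, which encodes A-MYB, the activator of pachytene piRNA genes, was at 12.7 and 15.6 with a log2 ratio of 0.27. *Tdrd6* was at an RPKM of 0.114 in control and 0.0958 in *Bcas2F/-;Vasa-Cre* testes, and *Gtsf1l* and *Gtsf2*, the relatives of *Gtsf1*, were listed at 0 in both libraries.

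The miRNA and siRNA pathway, which acts in all cells, was set beside the piRNA genes. Of its 12 listed genes 11 were tested, with 4 lower, 7 higher, none past 1.5-fold and a median log2 ratio of 0.03. Its range ran from *Drosha*, the nuclear miRNA processing enzyme, at −0.37 (72.5 and 55.7) to *Ago3*, an Argonaute gene, at 0.38 (15.0 and 19.8), with *Ddx3x* as the most highly expressed gene at 256 and 286. *Dgcr8* was listed at 0 in both libraries although it is used in all cells, so a value of 0 in these tables can be a failed estimate. *Mov10*, the relative of *Mov10l1* that is expressed outside the germ line, was at 47.4 and 47.8 with a log2 ratio of 0.01.

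Germ cell markers were set beside the piRNA genes, and most but not all were lower. Of all tested genes, 46.3% were lower and 1.69% more than 1.5-fold lower. Of 12 genes of undifferentiated spermatogonia, 8 were lower and 4 higher, with a median log2 ratio of −0.22 and a summed RPKM of 493 in control and 397 in *Bcas2F/-;Vasa-Cre* testes. *Nanos3* (−0.99) and *Sall4* (−0.71) were more than 1.5-fold lower, *Nanos2* was the highest at 0.49, and *Uchl1* the most highly expressed, at 279 and 224. Of 10 genes listed for differentiating spermatogonia, 9 were lower, with a median of −0.53 and a summed RPKM of 477 and 345. That these genes are limited to this stage was not tested. *Prss50* (−1.19), *Meioc* (−0.95), *Rhox13* (−0.95), *Dmrtb1* (−0.79) and *Stra8* (−0.61) were more than 1.5-fold lower, *Sohlh2* was the highest at 0.20, and *Dazl* the most highly expressed, at 165 and 125. Of 16 genes of meiotic prophase, 13 were tested and 12 were lower, with a median of −0.37 and a summed RPKM of 238 and 165. *Smc1b* (−1.11), *Tex11* (−0.85) and *Prdm9* (−0.76) were more than 1.5-fold lower, *Msh5* was the highest at 0.27, and *Stag3* the most highly expressed, at 42.1 and 28.2. By real-time RT-PCR on replicate P9 testes, the study reported similar mRNA levels of *Nanos2*, *Neurog3*, *Sohlh1*, *Sohlh2*, *Kit*, *Dazl* and *Stra8* in both genotypes. It reported lower levels of *Dmc1*, *Sycp1*, *Sycp3* and *Smc1b* in the mutant. Whether a smaller share of germ cells has a part in the lower piRNA genes was not tested. The study could not tell the genotypes apart by histology at P9. Soon after this age it reported no significant difference in the number of germ cells along the basement membrane. Germ cells in the centre of the tubules were reported as lost at later ages.

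The ratios were also read against the germ cells, by setting the median of both spermatogonia lists, −0.36 over 22 genes, to 0. The lists that were joined differed, with medians of −0.22 (undifferentiated) and −0.53 (differentiating), so the zero point depends on their composition. Whether all listed genes are limited to spermatogonia was not tested. On this scale the 10 piRNA genes were evenly divided, with 5 below and 5 above the median of these germ cell genes, and had a median of 0.055. Neither list was used alone as the zero point. *Tdrd9* and *Mov10l1* were then at −0.24 each, *Mael* at −0.14, *Piwil4* at −0.13 and *Tdrd1* at −0.0036, whereas *Ddx4* was at 0.11, *Gtsf1* at 0.20, *Piwil2* at 0.22, *Pld6* at 0.35 and *Asz1* at 0.41. The order of the genes among themselves does not depend on this choice. None of the 10 genes was past 1.5-fold lower on this scale, and of the other piRNA pathway genes 1 was.

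Somatic markers were expressed in both libraries, as the label of whole testes implies. Of 14 Sertoli cell genes 13 were tested and 12 were higher in *Bcas2F/-;Vasa-Cre* testes, with a median log2 ratio of 0.17, a range from −0.10 (*Gata1*) to 0.36 (*Amh*), a summed RPKM of 3271 in control and 3608 in *Bcas2F/-;Vasa-Cre* testes, and *Aard* as the most highly expressed at 1379 and 1475. *Rhox5* was listed at 0 in both. Of 7 Leydig cell genes (median 0.03), *Cyp17a1* was more than 1.5-fold higher at 0.68, and *Hsd3b1*, the most highly expressed, was the lowest at −0.17. The median was −0.05 for 5 peritubular myoid genes, from *Acta2* (−0.13), the most highly expressed, to *Cnn1* (0.09), and −0.06 for 5 endothelial genes, from *Tek* (−0.22) to *Kdr* (0.08), with *Cdh5* the most highly expressed. Of 5 macrophage genes (median −0.19), *Cd14* was more than 1.5-fold lower at −0.71 and *Mrc1*, the most highly expressed, was the highest at 0.10. Spermatid genes were nearly silent, with a summed RPKM over 8 genes of 3.83 and 5.71, and of the 2 that were tested *Spaca1* was at 0.65, more than 1.5-fold higher, and *Tnp1* at 0.02. Of 7 blood genes (median −1.03), *Slc4a1* (−3.38), *S100a9* (−2.95), *S100a8* (−2.64) and *Hbb-bt* (−1.03) were more than 1.5-fold lower, and *Hbb-bs*, the most highly expressed, was at 0.11.

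**Figure D4:**
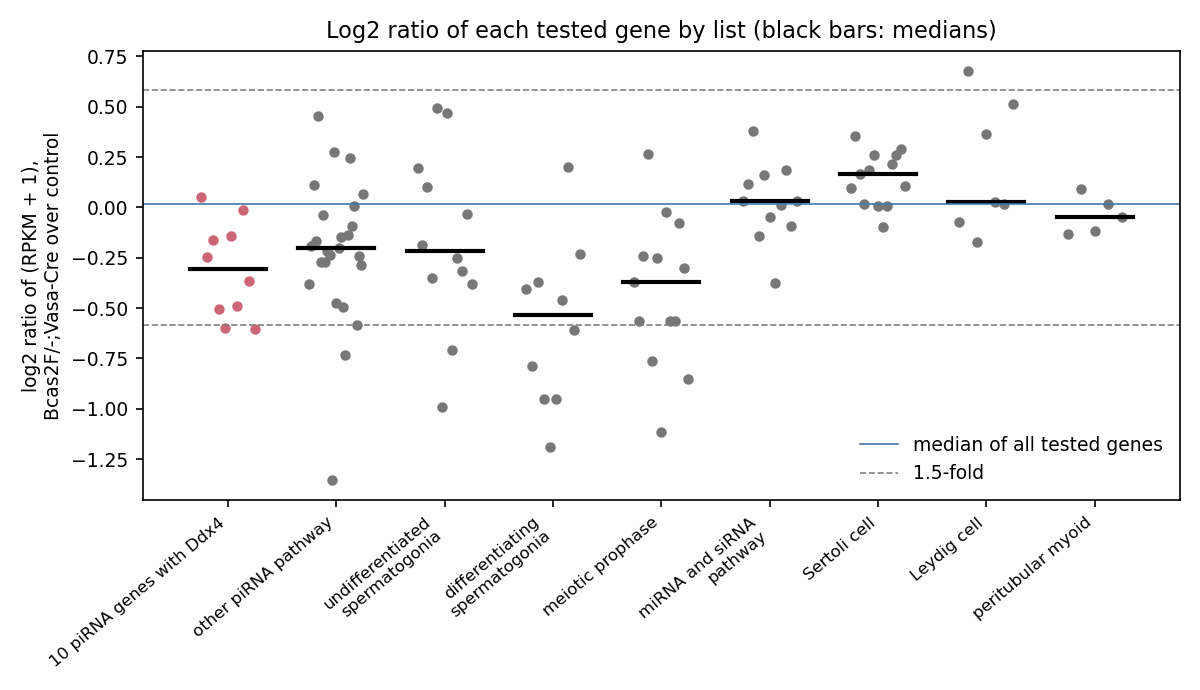
Log2 ratio of RPKM + 1 in *Bcas2F/-;Vasa-Cre* over control for each tested gene of 9 lists (points) with the median of each list (black bars). The 10 piRNA genes (red) have a median of −0.31 and overlap with the spermatogonia and meiotic lists, and the Sertoli cell list has a median of 0.17.

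Genes with and without an E-box overlapped in their ratios. The 6 genes with a match had log2 ratios of −0.60, −0.60, −0.50, −0.37, −0.25 and −0.01 (*Tdrd9*, *Mov10l1*, *Mael*, *Tdrd1*, *Ddx4* and *Pld6*), and the 3 genes with a window but no match had −0.49, −0.16 and 0.05 (*Piwil4*, *Gtsf1* and *Asz1*). In the other lists, the E-box was found in 3 of 20 windows of the other piRNA pathway genes (*Piwil1*, *Stk31* and *Fkbp6*), in 4 of 13 meiotic prophase genes (*Sycp1*, *Sycp3*, *Stag3* and *Hormad1*), in 1 of 10 genes of differentiating spermatogonia (*Sohlh1*), in 2 of 8 Sertoli cell genes (*Fshr* and *Ctsl*), in 0 of 9 genes of undifferentiated spermatogonia, and in 0 of 11 genes of the miRNA and siRNA pathway.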

How the data were processed

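RNA from P9 testes of control and *Bcas2F/-;Vasa-Cre* mice (1 library each, named by the sample labels) was sequenced as paired ends. The authors removed adaptors and poor reads, aligned with TopHat2 2.0.9 to mm10, counted with HTSeq and deposited RPKM values with zeros kept. The annotation release is not given in the sources used here. Ensembl identifiers were matched to GENCODE M21 (GRCm38), which gave symbols for 37606 of 39695 entries.

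Log2 ratios of RPKM + 1 were computed for the 14831 entries with a mean RPKM of at least 1. Genes past 1.5-fold, a threshold of the study's methods, were counted without a p-value. Reads were recovered because the RPKM ratio of a gene is a ratio of whole reads times the ratio of library sizes, with a relative tolerance of 2e-08. Of 1564 genes with a single transcript, 879 gave the same control library size. For each gene the multiple that made its length whole within 0.001 bases and nearest to the mean transcript length was taken, so reads of a gene with another length could be wrong by a whole factor. Reads were assigned to 20495 genes, 87.9% of the control library. Intervals are exact at 95% (Poisson for levels, Clopper-Pearson for ratios) and cover counting error only. The procedure was run on simulated libraries in which every gene had its rounded mean transcript length. Genes with another length were therefore not tested. Of the genes with recovered reads 53.2% had the mean length, and *Ddx4*, *Piwil2*, *Mael* and *Tdrd9* did not. The strand setting of the counting is not given.

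The genes, lists, thresholds and motifs were chosen with earlier results of these data known. All 10 genes and *Bcas2* are given in full, and of the other lists every gene past 1.5-fold, those with the extreme ratios and the most highly expressed. Further genes were named freely from the other piRNA and germ cell lists. No genes of like pattern are named, since 2 libraries give 1 ratio per gene. Promoters came from RefSeq on GRCm38.p6, 1 window per gene, that nearest to the 5′ end of the GENCODE gene. Alternatives were other pseudocounts, scalings and filters. Computations used Python 3.11.15 with pandas 2.3.3, numpy 2.4.6 and scipy 1.17.1, and figures matplotlib 3.10.9.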

Additional observations from a re-analysis of the deposited data

How the results depend on the processing

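The log2 ratios of the 10 genes kept their sign under pseudocounts of 0.1 and 0.01, with the median of all tested genes set to 0 (a shift of −0.015), and without a pseudocount, the last chosen after seeing the data. Filters on mean RPKM do not alter a ratio, but a minimum of 5 leaves out *Piwil4*. With both libraries scaled to the same RPKM sum, which is larger than the deposited sums of 639434 and 627010 and so also raises all values against the pseudocount and the filter, *Pld6* turned to 0.016, 1 of the 10 genes was past 1.5-fold lower instead of 2, and of all genes 356 were past 1.5-fold lower instead of 251 and 434 higher instead of 233. With the median of the spermatogonia lists set to 0, a shift of 0.36, *Ddx4* (0.11), *Piwil2* (0.22), *Gtsf1* (0.20), *Pld6* (0.35) and the median of the 10 genes (0.055) turned positive, by construction of the setting. Then 5 of the 10 genes were lower and 0 past 1.5-fold lower, 1 of the other piRNA pathway genes was past 1.5-fold lower, and of all genes 65 were past 1.5-fold lower and 1815 higher. The counts over all genes past 1.5-fold, 251 lower and 233 higher, became 457 and 454 with a pseudocount of 0.1, 485 and 491 with 0.01, 468 and 511 without a filter, and 104 and 46 with a mean RPKM of at least 5, and the cause was not tested. No paired analysis was possible because each genotype had 1 library. Depth limits *Piwil4*, *Pld6* and *Gtsf1* most, with 473, 740 and 958 reads in both libraries together.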

Other observations

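Genes of nuclear transposon silencing were among the lowest of both piRNA lists, a grouping made after their values were seen and not tested. *Morc1*, *Spocd1*, *Tdrd9*, *Mael* and *Piwil4*, whose products are known from the silencing of transposons in the nucleus of prospermatogonia, had log2 ratios from −1.35 to −0.49, but so did *Mov10l1*, *Tdrkh* and *Rnf17*, which are not known for this step. *Tex15* and *Dnmt3l*, which belong to the same step, were at −0.24 and −0.17, and *Dnmt3l* was covered by only 59 reads in both libraries. *Piwil1*, the PIWI gene of pachytene spermatocytes, was just above *Piwil4* at −0.48. By its reads *Piwil1* was at −0.83, with 218 reads in both libraries together. *Dnmt3a* encodes a DNA methyltransferase that somatic cells use as well. It was at an RPKM of 90.9 in control and 98.4 in *Bcas2F/-;Vasa-Cre* testes, a log2 ratio of 0.11.

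The partners EXD1 and TDRD12 were the products of 2 of the 6 genes of the other piRNA list that were higher in *Bcas2F/-;Vasa-Cre* testes, with *Exd1* covered by 299 reads in control and 426 in *Bcas2F/-;Vasa-Cre* testes and *Tdrd12* by 718 and 834. *Mybl1*, with 551 and 655 reads, was higher as well, whereas *Btbd18*, which encodes a nuclear factor for pachytene piRNA precursor transcription, was lower, at an RPKM of 7.28 and 5.37.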
